A study of Mus musculus with 23 samples.

Results

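Ighm, Cd79a, Cd79b, Cd22, Bank1, Pax5, Ms4a1 and Cr2, all genes known for their use in B cells, were followed over 23 bulk RNA libraries of mouse tumours. These 8 of 55401 genes in the deposited table were chosen by their level in single libraries, since an earlier look at the same data had placed B cell transcripts high in 1 of them, replicate 1 of the IL-27 vector tumours exposed to cabozantinib plus IL-27. The levels in that library are therefore described with no test. The label held for 1 of the 8. Ighm, which encodes the mu heavy chain of antibodies, was highest in that library, and the other 7 were not. What stood beside Ighm there were transcripts of some light chain genes, J chain, V segments and heavy and kappa J segments, which were not among the chosen genes. The library is called the high-Ighm library below.

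The tumours grew under the skin of the flanks of male C57/BL6 mice aged 8 to 10 weeks from TC2Ras cells. TC2Ras is TRAMP-C2, a mouse prostate adenocarcinoma line, with a lentivirus that expresses activated H-ras (G12V). By ultrasound and microbubbles the mice received 10 µg of plasmid per tibialis anterior muscle, either pTSTA-ctrl, the empty vector, or pTSTA-IL27pepL, the IL-27 vector. Tumours were then held ex vivo in media alone or with cabozantinib (a kinase inhibitor), docetaxel (a microtubule drug), anti-PD-L1 (an antibody to a checkpoint ligand), IL-27, or cabozantinib plus IL-27. All groups thus share the cell line, the mouse strain, plasmid delivery into muscle away from the tumour, and an ex vivo step. The host keeps its own lymphocytes. The sources used here give no doses, exposure times or number of animals for these groups. The empty vector has 12 libraries, 2 for each condition. The IL-27 vector has 11, of which ex vivo IL-27 has 1 and the other conditions 2 each. The labels do not tie replicates to separate animals. The p-values therefore reflect the scatter among these libraries alone, part of which may be technical.

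B cells carry an antibody on their surface as receptor, with Cd79a and Cd79b as its signalling chains, and the transcription factor Pax5 holds the cells to their lineage. When a B cell becomes an antibody-secreting plasma cell it lowers Pax5, Ms4a1 and Cr2 and makes heavy chain, light chain and J chain RNA in great amounts. The variable end of each chain is encoded by V and J segments joined in the DNA of that cell and its descendants, so transcripts of single segments mark which antibodies were being made.

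The J segments are shown because their counts in the high-Ighm library were unequal within each locus. Each sequence runs 5′ to 3′ along the coding strand (GENCODE M21 transcripts, GRCm38). Capitals mark TGGGG in heavy chain segments and TTCGG in kappa segments, which cover the conserved aromatic residue of the J region and the start of the glycine after it. On the coding strand the first motif was found in 4 of 4 heavy segments and the second in 4 of 5 kappa segments. The heavy segments lie on the minus strand of chromosome 12, at chr12:113429781-113429833 for Ighj1, chr12:113429468-113429515 for Ighj2, chr12:113429085-113429132 for Ighj3 and chr12:113428514-113428567 for Ighj4. The kappa segments lie on the plus strand of chromosome 6, from Igkj1 at chr6:70722562-70722599 to Igkj5 at chr6:70723886-70723923.
Ighj1: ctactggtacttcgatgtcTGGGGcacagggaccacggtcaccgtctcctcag
Ighj2: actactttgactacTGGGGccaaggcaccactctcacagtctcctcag
Ighj3: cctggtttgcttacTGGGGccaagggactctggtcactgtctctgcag
Ighj4: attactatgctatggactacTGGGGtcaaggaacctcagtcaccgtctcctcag
Igkj1: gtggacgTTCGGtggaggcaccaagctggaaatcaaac
Igkj2: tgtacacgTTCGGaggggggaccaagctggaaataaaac
Igkj3: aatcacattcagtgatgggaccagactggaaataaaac
Igkj4: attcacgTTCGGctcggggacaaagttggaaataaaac
Igkj5: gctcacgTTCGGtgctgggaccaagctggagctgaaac

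The last 90 bases of the 5 V segments that led the high-Ighm library are shown for the same reason. Capitals mark the last match on the coding strand to TANTNNTGN, the codons of the tyrosine and cysteine that end the conserved V framework. Of 218 V segments with that many bases, 208 (95.4%) hold it. Ighv5-9 and Ighv10-1 are heavy chain segments (chr12:113661769-113661858 and chr12:114479005-114479094, minus strand). Igkv4-55 and Igkv10-96 are kappa segments (chr6:69607275-69607364 and chr6:68631963-68632052, minus strand). Iglv2 is 1 of 3 lambda segments in the table (chr16:19260401-19260490, minus strand).
Ighv5-9: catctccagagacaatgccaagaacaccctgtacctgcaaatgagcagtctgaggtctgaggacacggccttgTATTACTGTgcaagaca
Ighv10-1: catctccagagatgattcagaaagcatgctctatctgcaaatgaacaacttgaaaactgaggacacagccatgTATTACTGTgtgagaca
Igkv4-55: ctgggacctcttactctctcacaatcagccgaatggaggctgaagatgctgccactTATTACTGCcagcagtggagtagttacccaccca
Igkv10-96: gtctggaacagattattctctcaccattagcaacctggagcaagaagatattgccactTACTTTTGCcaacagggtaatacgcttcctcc
Iglv2: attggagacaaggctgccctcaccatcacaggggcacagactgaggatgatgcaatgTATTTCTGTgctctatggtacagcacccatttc

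Library totals ran from 47641781 to 83088346 estimated counts, and the high-Ighm library had 72170621, so depth did not set it apart. Levels are CPM, that is counts relative to the TMM-scaled library total, and 1 CPM stood for 37.0 to 84.9 counts depending on the library. Ratios and shares carry 95% intervals that treat each deposited count as an independent read and cover counting error only. The deposited values are not plain read counts: 143 genes have 1 nonzero value that is repeated in every library, and 31.7 to 35.3% of values from 1 to 40 are multiples of 4. Where 1 read adds more than 1 count, these intervals are too narrow, and by how much was not tested. Of the 184 values of the 8 genes, 46 were 0 and 85 lay between 1 and 40, so most of what follows on the 7 genes other than Ighm rests on few reads. In these bulk samples, fewer cells of a type and less RNA per cell cannot be told apart.

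Ighm (ENSMUSG00000076617, chr12:113418558-113422730, minus strand) was at 219.6 CPM in the high-Ighm library, from 17063 counts. In the 12 empty vector libraries it lay between 0.365 and 3.70 CPM with a median of 1.37. In the other 10 IL-27 vector libraries it lay between 0.561 and 17.1 CPM with a median of 3.01, and replicate 2 of the same group was at 4.61 CPM. The high-Ighm library was thus 12.8 times the next highest (12.1 to 13.6), IL-27 vector media replicate 2, and 128 times the median of the other 22. The deposited gene counts do not separate the secreted from the membrane form of the mu chain.

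The receptor's signalling chains did not follow. Cd79a (ENSMUSG00000003379, chr7:24897381-24902197) was at 0.476 CPM in the high-Ighm library, from 37 counts, below 3 other libraries. Its range was 0 to 0.577 CPM with a median of 0.226 in empty vector and 0 to 0.569 with a median of 0.216 in the other IL-27 vector libraries. Cd79b (ENSMUSG00000040592, chr11:106311341-106314762) was at 0.875 CPM there, from 68 counts, against 0 to 1.37 (median 0.132) and 0 to 0.584 (median 0.22). Only empty vector IL-27 replicate 1 was higher for Cd79b. Per kilobase of exon, the level in the high-Ighm library was 116 CPM for Ighm, 0.327 for Cd79a and 0.612 for Cd79b. The medians over the other 22 libraries were 0.908, 0.155 and 0.141 CPM per kilobase in that order. The library that was next highest for Ighm had 0 counts of Cd79a.

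Among regulators of the receptor, Cd22 (ENSMUSG00000030577, chr7:30865402-30880342), an inhibitory receptor, was at 1.31 CPM in the high-Ighm library. It ranged from 0.293 to 1.31 CPM (median 0.538) in empty vector and from 0 to 2.24 (median 0.683) in the other IL-27 vector libraries. The high-Ighm library ranked 3 of 23. Bank1 (ENSMUSG00000037922, chr3:136053363-136326066), a scaffold of receptor signalling, was at 0.232 CPM and ranked 5, with 0 to 0.365 CPM (median 0.0883) in empty vector and 0 to 0.355 (median 0) in the others. Neither gene set that library apart.

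Pax5 (ENSMUSG00000014030, chr4:44524757-44710487) was at 0.94 CPM there, from 73 counts, and ranked 2 after empty vector cabozantinib plus IL-27 replicate 2 at 1.85 CPM. The other ranges were 0 to 1.85 CPM (median 0.182) in empty vector and 0.104 to 0.665 (median 0.28) in IL-27 vector. Ms4a1 (ENSMUSG00000024673, chr19:11249675-11266241), which encodes the surface protein CD20, had 4 counts there, or 0.0515 CPM. It was at 0 in 19 of the other 22 libraries, with 0.354 CPM in empty vector IL-27 replicate 2 as the highest. For Ms4a1 a count of 4 does not separate a library from those at 0.

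Cr2 (ENSMUSG00000026616, chr1:195136811-195176716), the complement receptor CD21 of mature B cells and follicular dendritic cells, was low in the high-Ighm library. It was at 0.154 CPM there, from 12 counts, and ranked 19 of 23. In empty vector it lay between 0.11 and 1.78 CPM with a median of 1.09, and in the other IL-27 vector libraries between 0.0739 and 2.76 with a median of 0.348. The highest value was in IL-27 vector media replicate 1.

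**Figure D1:**
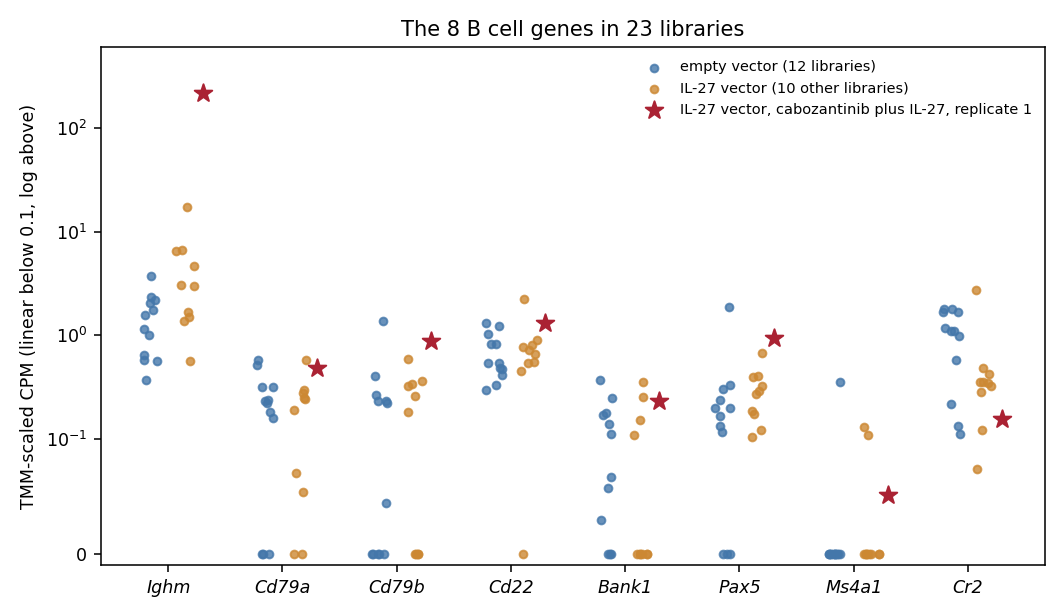
Level of each of the 8 B cell genes (TMM-scaled CPM, vertical axis, linear below 0.1 and logarithmic above) in every library, with 1 point per library. Blue points are 12 empty vector libraries, orange points 10 IL-27 vector libraries and the red star the high-Ighm library. The star stands above all others for Ighm at 219.6 CPM and inside the range of the others for the remaining 7 genes.

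Over the 8 genes, 1 had its highest level in the high-Ighm library. The same holds for 2.82% of 21529 genes with at least 20 counts in some library. Summed over the 8 genes the library held 224 CPM against at most 19.2 CPM elsewhere, and Ighm made up 98.2% of that sum. Without Ighm the other 7 genes summed to 4.04 CPM there, and to 1.23 to 3.98 CPM elsewhere with a median of 2.22. The ratio to the next library was 11.6 (11 to 12.3) with Ighm and 1.02 without it.

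Other B lineage genes varied in where the high-Ighm library stood. Of a list of 26, it was the highest library for 3 and ranked 2 to 4 for 9 and 5 or lower for 14, and the list's sum of 92.3 CPM, mostly Igkc and Iglc2, compared with at most 89.0 CPM elsewhere. Blk, a kinase of the B cell receptor, ranked 2 at 0.257 CPM from 20 counts and was at 0 in 20 of the other 22. Fcrl1, a surface receptor of B cells, ranked 2 at 0.463 CPM from 36 counts and was at 0 in 17. Ltb, a lymphotoxin, ranked 2 at 1.12 CPM, and Cxcr5, the receptor for Cxcl13, ranked 4 at 0.605 CPM. For each of these 4 genes at least 1 other library was higher. Fcer2a, the low-affinity IgE receptor CD23, had 7 counts in the high-Ighm library (0.0901 CPM) and up to 0.305 CPM elsewhere, the highest being replicate 2 of the same group. Fcmr, a receptor for IgM, had 0 counts, and Cd72 at 0.811 CPM ranked 23 of 23. The 3 genes of the list that were highest there, each with at least 20 counts, were Igkc, Iglc2 and Pou2af1. Of 20 genes of receptor signalling none did, and their sum of 458 CPM ranked 6. Of 8 germinal centre genes none did.

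Several antibody constant regions stood with Ighm. Igkc, the kappa constant region, was at 48.9 CPM in the high-Ighm library, from 3799 counts, against 0.0373 to 4.11 CPM (median 0.406) in the other 22, a ratio to the next of 11.9 (10.5 to 13.5). Iglc2, a lambda constant region, was at 9.63 CPM against at most 0.518, and was at 0 in 10 of the other 22. Ighg3, the gamma 3 heavy chain, was at 11.1 CPM, with 2.39 CPM in replicate 2 of the same group as the next highest and 0 in 17 libraries. Ighg2b was at 3.35 CPM against at most 0.256. The library was the highest for all 4 of these genes. It was not for Ighd, the delta heavy chain, at 0.193 CPM against at most 0.392, nor for the lambda constant region Iglc1, at 0.283 CPM against at most 0.454. Iglc3, another lambda constant region, had 0 counts there.

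The make-up of the constant region counts also differed between libraries. Of 18198 heavy chain constant counts in the high-Ighm library, Ighm made up 93.8% (Wilson 95% interval 93.4 to 94.1), Ighg3 4.73% (4.43 to 5.04) and Ighg2b 1.43% (1.27 to 1.61). Igha, the alpha chain of mucosal antibodies, had 0 counts there, which allows a share of up to 0.0165% (3 counts of the total). It made up 66.0% (61.0 to 70.6) of 376 such counts in IL-27 vector docetaxel replicate 1. Ighg1 and Ighg2c had 0 counts in all 23 libraries. Of 4569 light chain constant counts in the high-Ighm library, Igkc made up 83.1% (82.0 to 84.2) and Iglc2 16.4% (15.3 to 17.5), and the other 22 libraries spanned 31.8 to 100% and 0 to 18.5%. For the heavy chain shares the other 22 libraries spanned 29.8 to 100% for Ighm, 0 to 33.5% for Ighg3 and 0 to 10.8% for Ighg2b. Shares thus differed between libraries, and the high-Ighm library was inside the range of the others for its heavy chain, kappa and lambda shares.

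Among genes of antibody secretion, Jchain, which joins IgM and IgA into multimers, was at 9.64 CPM there, from 749 counts. The next highest was IL-27 vector docetaxel replicate 1 at 1.95 CPM, and replicate 2 of the same group had 0. Mzb1, an endoplasmic reticulum protein of antibody folding, was at 0.978 CPM against at most 0.281 (76 and 20 counts). Pou2af1, a coactivator of antibody gene transcription, was at 1.25 CPM against at most 0.205. Of the 13 genes of the plasma cell list, 4 had at least 20 counts and their highest level there, namely Ighg2b, Jchain, Ighg3 and Mzb1.

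The remaining plasma cell genes did not single the library out. Xbp1 and Prdm1, transcription factors of secretory cells that other tissues also express, ranked 19 and 16, at 102 and 26.0 CPM. Sdc1, a surface proteoglycan of plasma cells and of epithelia, was at 91.1 CPM and ranked 5. Irf4 was at 1.40 CPM and ranked 2 after IL-27 vector cabozantinib replicate 2 at 1.88 CPM. Derl3 was at 0.669 CPM and ranked 8, and Tnfrsf17, the plasma cell survival receptor BCMA, had 0 counts. The plasma cell list as a whole summed to 246.5 CPM and ranked 7.

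**Figure D2:**
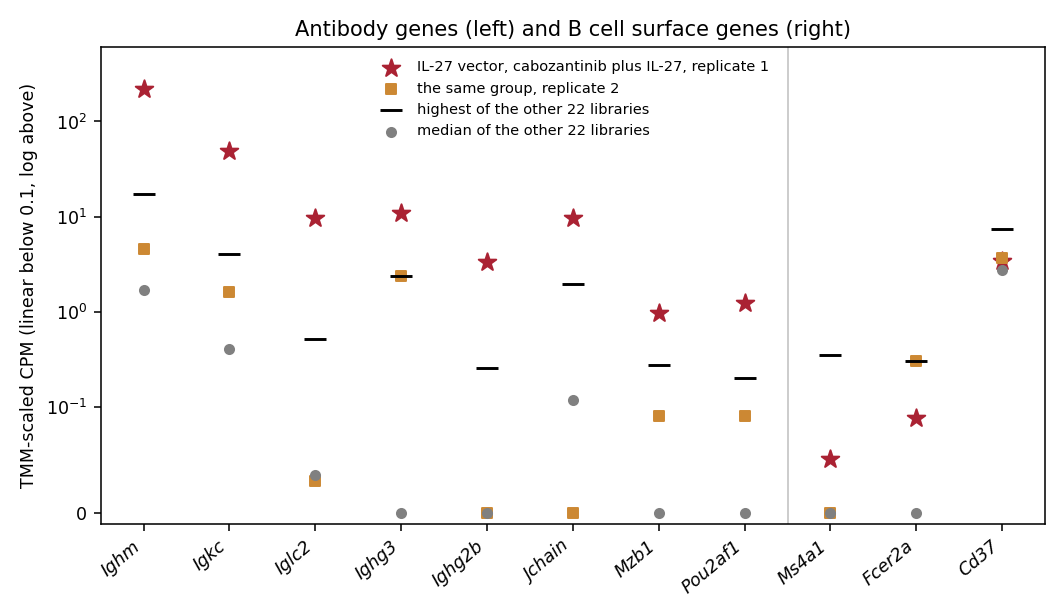
Antibody and antibody-secretion genes (left of the grey line) and 3 B cell surface genes (right) in TMM-scaled CPM, linear below 0.1 and logarithmic above. Of surface genes not shown, Cd79b, Cd22 and Cd79a ranked 2, 3 and 4 of 23 in the high-Ighm library, and Cr2 ranked 19. Red stars are the high-Ighm library, orange squares the second replicate of its group, black bars the highest and grey points the median of the other 22 libraries. The stars lie above the bars for the 8 genes on the left, from 219.6 CPM for Ighm to 0.978 CPM for Mzb1. They lie below the bars for the 3 on the right. The genes on the left were picked because each was highest in the high-Ighm library, so their placing was set by the choice. The 3 on the right were also picked, from surface genes that were not highest there, so the split between the sides is no result. Cd37 is a gene of leukocytes and not of B cells alone. Antibody genes that were not highest there, such as Ighd, Iglc1 and Igha, are not shown.

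V segments in the high-Ighm library were few and unequal. Of 183 heavy V segments, 14 had counts there, 3110 in all, against at most 98 counts in any other library and 42 in replicate 2 of the group. Ighv5-9 held 1685 of them, 54.2% (52.4 to 55.9), and Ighv10-1 held 696, 22.4% (20.9 to 23.9). Ighv1-85 and Ighv7-3 followed with 229 and 202 counts. The other 22 libraries together held 21 counts of Ighv5-9 and 10 of Ighv10-1.

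Kappa V segments were few and unequal too, while all 3 lambda V segments in the table had counts there, with unequal shares. Of 160 kappa V segments 16 had counts there, 3467 in all, against at most 324 elsewhere. Igkv4-55 held 2068 of them, 59.6% (58.0 to 61.3), where the other 22 libraries together held 4. Igkv10-96 held 620, 17.9% (16.6 to 19.2). Iglv2 held 869 of 929 lambda V counts, 93.5% (91.8 to 94.9), and 97 counts were found in the other 22 libraries together.

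The J segments printed above were used unequally too. Ighj2 had 95 of 163 heavy J counts, 58.3% (50.6 to 65.6), with 33 for Ighj4, 24 for Ighj3 and 11 for Ighj1. Igkj5 had 102 of 144 kappa J counts, 70.8% (62.9 to 77.6), and Igkj4 had 40. Igkj2 had 2, and Igkj1 and Igkj3 had 0. In replicate 2 of the group the heavy J segments had 0 counts and the kappa J segments 2. Lambda J segments did not stand out, with 3 counts in the high-Ighm library and 7 in empty vector IL-27 replicate 1.

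IL-27 vector media replicate 2, which was next highest for Ighm, had another leading kappa segment but shared some segments with the high-Ighm library. Its leading kappa segment was Igkv1-110 with 187 of its 324 kappa V counts, against 40 in the high-Ighm library. It shared Iglv2, with 51 counts, Igkv12-44, with 33 (54 in the high-Ighm library), and Igkj5, with 10. It also had 5 counts of Ighj2 and 4 of Ighv10-1. Ighm made up 98.9% of its 1172 heavy chain constant counts. V segments resemble each other, so the assignment of reads to single segments is uncertain. Over their last 285 bases the 5 V segments printed above were 94.4 to 97.5% identical to their nearest relative in the table, and Igkv4-55 had 16 relatives at 90% or more.

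**Figure D3:**
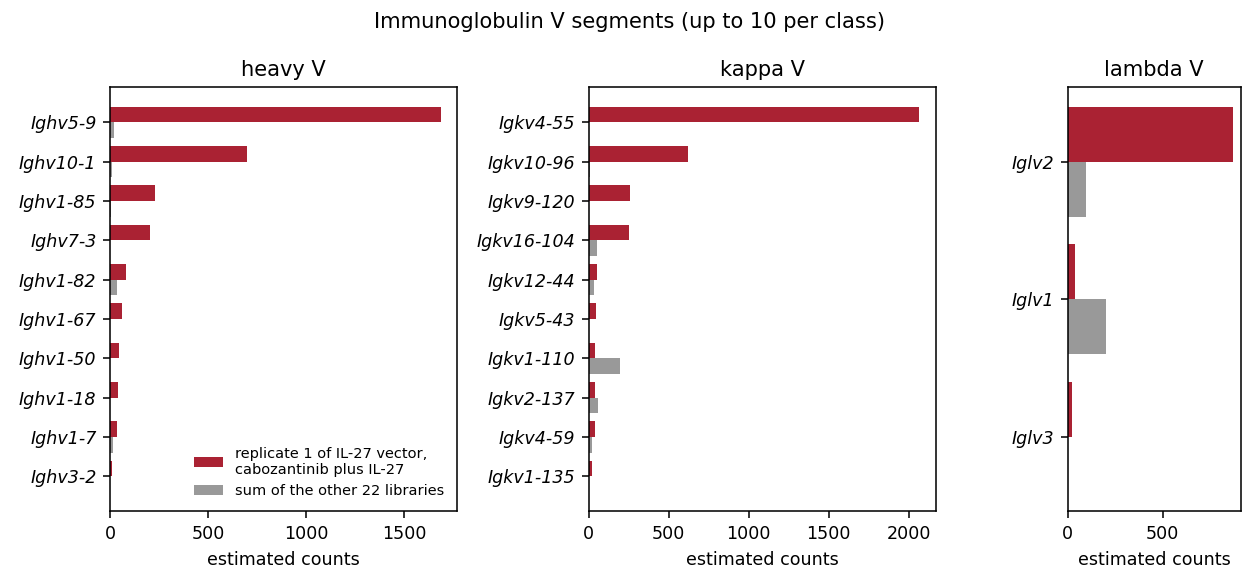
Estimated counts (horizontal axes, each with its own scale) of the V segments with most counts in the high-Ighm library, up to 10 per class. Red bars are the high-Ighm library and grey bars the sum of the other 22 libraries. Ighv5-9 (1685), Igkv4-55 (2068) and Iglv2 (869) lead their classes, while Iglv1 and Igkv1-110 had more counts in the other libraries together.

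Markers of other cell types were compared in the same way. The high-Ighm library ranked 3 for 19 T cell genes (35.4 CPM, highest elsewhere 49.2), 9 for 9 MHC class II genes (97.1 CPM, highest 277), 12 for 10 macrophage genes and 8 for 9 dendritic cell genes. Of the T cell list 1 gene, Cd3e, had at least 20 counts and its highest level there, at 0.644 CPM against 0.640, a difference within counting error (ratio 1.01, 0.644 to 1.58). It ranked 7 for 11 genes of lymphoid tissue stroma, whose markers Ccl21a, Madcam1 and Glycam1 were at 0 counts there. Cxcl13, a B cell attracting chemokine, ranked 2 at 2.47 CPM, and Il7, a lymphocyte growth factor, was highest there at 1.27 CPM against 1.16 CPM (ratio 1.10, 0.759 to 1.61). The 13 skeletal muscle genes summed to 598 CPM there, rank 9. The 6 erythroid genes summed to 553 CPM, rank 3, against a median of 52.2 CPM in the other 22, and replicate 2 of the group was at 565 CPM. The 8 adipocyte genes ranked 4 at 93.2 CPM, and Cfd, an adipocyte protease, was highest there at 36.0 CPM against 31.2 CPM. The part of these cell types in the Ighm level was not tested.

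In all 28 genes had at least 50 counts in the high-Ighm library and a level at least 4 times that of every other library, and 18 of them were immunoglobulin genes. In the other 22 libraries the same count ran from 0 to 182 with a median of 2.5, so 2 libraries had more such genes, with IL-27 vector docetaxel replicate 1 the highest. No more than 3 immunoglobulin genes were among them in any of those libraries. Of the 12 genes outside the lists with the highest such ratio, 11 were V or J segments. The remaining one was Gldn, a gene of Schwann cells at nodes of Ranvier, at 11.7 CPM against at most 0.961.

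**Figure D4:**
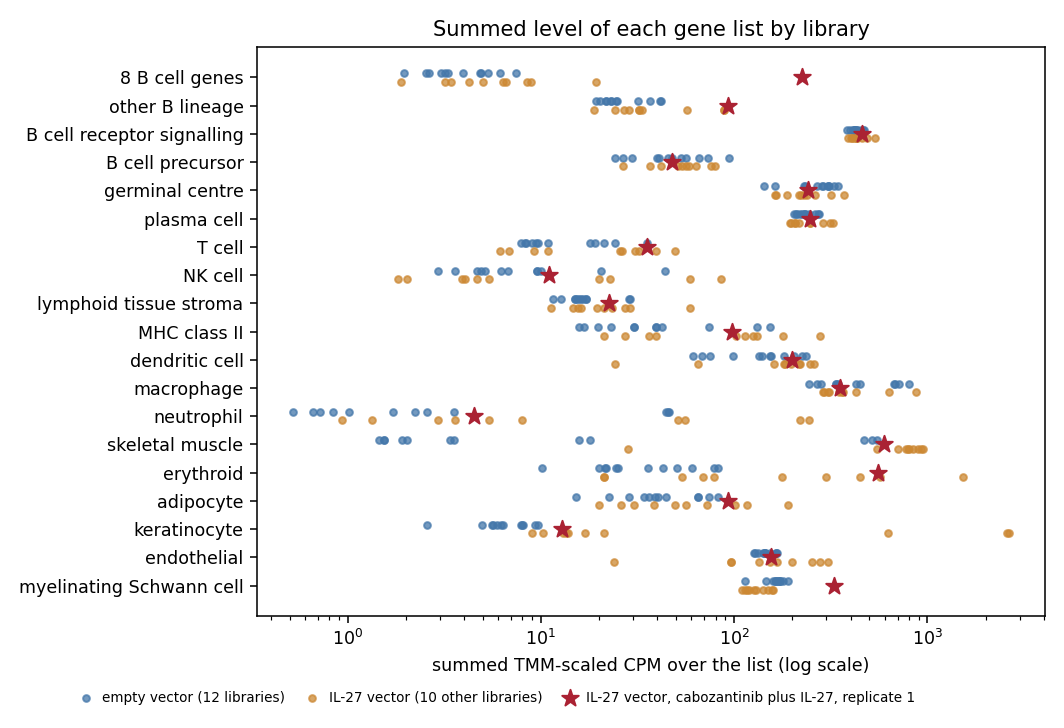
Summed level of each gene list (TMM-scaled CPM, logarithmic horizontal axis), with 1 point per library and colours as in the plot of the 8 genes. The high-Ighm library (red star) lies far above the others for the 8 B cell genes (224 against at most 19.2 CPM, nearly all Ighm) and above them for myelinating Schwann cell genes (327 against at most 189.6 CPM), a list written after the data were seen. For T cell, MHC class II, macrophage and muscle genes it lies within the range of the others.

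The 8 genes were then compared between the vectors over the 22 libraries that did not choose them. By edgeR's quasi-likelihood test with Benjamini-Hochberg adjustment over 24315 genes, none of the 8 was called at an adjusted p under 0.05, where 1.78% of all genes were (434, 353 higher and 81 lower). At an unadjusted p under 0.05 there was 1 of the 8 (edgeR), and DESeq2 called 1, in both cases Ighm. The shares of all genes by these rules were 12.3% and 5.83%, so 1 of 8 was near the background. The median log2 difference was 0.44 over the 8 genes and -0.004 over all genes.

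Ighm was closest to the threshold. Its log2 difference, IL-27 vector minus empty vector, was 1.65 ± 0.47 (SE; edgeR adjusted p = 0.0999). Of the 10 IL-27 vector libraries 4 were above the highest empty vector library and 8 above the empty vector median, so the groups overlapped. With the high-Ighm library put back the difference was 2.41 ± 0.56 and was called (edgeR adjusted p = 0.028). Without IL-27 vector media replicate 2 it was 1.18 (edgeR adjusted p = 0.25), and without IL-27 vector media replicate 1 it was 1.79 and called (edgeR adjusted p = 0.032). Igkc, which was not among the chosen genes, had 1.77 ± 0.61 (edgeR adjusted p = 0.19).

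Transcripts of muscle, red blood cells and keratinocytes were called between the vectors, where none of the 8 genes was. The IL-27 vector was called higher for 4 of 5 erythroid genes tested (Hba-a1, Hba-a2, Hbb-bs and Hbb-bt, median log2 difference of the 5 being 2.46). It was also called higher for 4 of 8 keratinocyte genes (Krt5, Krt14, Krt6a and Sbsn, median of the 8 being 5.43). The keratinocyte sum had a median of 6.28 CPM in empty vector (2.57 to 9.70) and 15.3 CPM in the other IL-27 vector libraries (8.98 to 2653). Its high values were in IL-27 vector docetaxel replicates 1 and 2 (2653 and 2580 CPM) and anti-PD-L1 replicate 1 (626 CPM). The next highest was IL-27 vector media replicate 1 at 21.1 CPM. All 13 skeletal muscle genes were called higher under the IL-27 vector, and their sum had a median of 3.45 CPM in empty vector (1.44 to 549.5) and 798 CPM in the other IL-27 vector libraries (28.4 to 944). Among libraries with at least 100 CPM of muscle transcripts, a split made after seeing the data, Ighm had a median of 1.58 CPM (0.995 to 3.70) in 3 empty vector libraries and 2.98 CPM (0.561 to 17.1) in 9 IL-27 vector libraries. Below 100 CPM it had a median of 1.15 CPM (0.365 to 2.31) in 9 empty vector libraries, and 3.03 CPM in the single IL-27 vector library there. The part of muscle, blood and skin in the Ighm difference was not tested.

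The other members gave smaller or less certain differences between the vectors. Cd79b had a log2 difference of 2.04 ± 1.13 and Pax5 one of 1.33 ± 0.70 (edgeR adjusted p = 0.54 and 0.5). Cd79a, Bank1 and Cr2 had -1.05 ± 0.89, -1.97 ± 1.03 and -1.28 ± 0.62 (edgeR adjusted p = 0.82, 0.49 and 0.43). Cd22 had 0.12 ± 0.55. For Ms4a1, with counts in 3 of the 22 libraries, no usable error could be had.

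**Figure D5:**
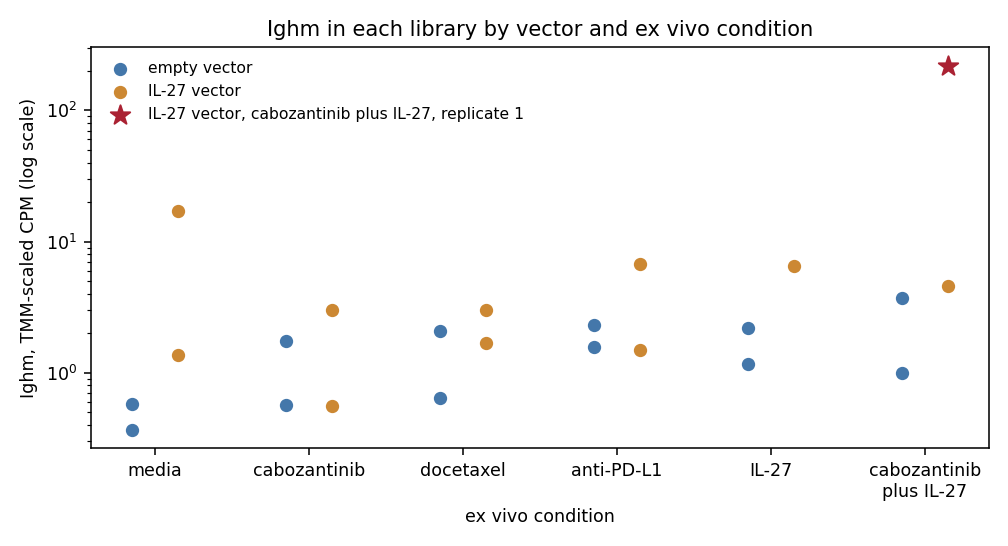
Ighm (TMM-scaled CPM, logarithmic vertical axis) by ex vivo condition, with 1 point per library, blue for empty vector and orange for IL-27 vector. The red star is the high-Ighm library at 219.6 CPM, the orange point below it replicate 2 of its group at 4.61 CPM, and the next highest library is IL-27 vector media replicate 2 at 17.1 CPM.

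Replicates of Ighm differed widely within several groups, as the plot by ex vivo condition shows. In media it was at 0.578 and 0.365 CPM in the empty vector libraries and at 1.36 and 17.1 CPM in the IL-27 vector libraries. With anti-PD-L1 the values were 2.31 and 1.58 CPM against 1.5 and 6.71 CPM. With cabozantinib they were 0.564 and 1.74 CPM against 0.561 and 2.98 CPM. With docetaxel they were 0.636 and 2.06 CPM against 3.03 and 1.69 CPM. The IL-27 vector replicates were further apart than the empty vector ones in media, anti-PD-L1 and cabozantinib, and closer together in docetaxel.

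For each of the 5 exposures the difference from media was averaged over both vectors, and the exposures share the media libraries. None of the 8 genes was called for cabozantinib (0% of all genes were called), docetaxel (1.09%), anti-PD-L1 (0%), ex vivo IL-27 (0%) or cabozantinib plus IL-27 (0.00411%). For Ighm the log2 differences were -0.55 ± 0.77, -0.22 ± 0.78, 0.43 ± 0.77, 0.67 ± 0.84 and 0.66 ± 0.84 in that order. Usable errors were had for 6 members with anti-PD-L1, 8 with ex vivo IL-27 and 7 with each remaining exposure. The smallest edgeR adjusted p of any member over these comparisons was 0.38, for Cd79a with docetaxel (3.74 ± 1.85). That estimate rests on media libraries at 0 counts, since Cd79a had 0 counts in both IL-27 vector media libraries and in 1 empty vector one.

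Bank1 and Cr2 had negative log2 differences in all 5 exposures, from -4.99 ± 1.93 to -1.55 ± 1.65 for Bank1 and from -2.34 ± 1.19 to -0.90 ± 0.94 for Cr2, and the 5 share the same media libraries. At an unadjusted p under 0.05 edgeR found 2 members for anti-PD-L1 (Cd79a and Bank1), 1 for ex vivo IL-27 (Pax5) and 0 for the other 3 exposures. The shares of all genes at that p were 9.27% for cabozantinib, 14.1% for docetaxel, 5.31% for anti-PD-L1, 10.7% for ex vivo IL-27 and 2.57% for cabozantinib plus IL-27. DESeq2 called 0 members in each of the 5.

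Whether an exposure's difference depended on the vector was tested as an interaction, 8 genes by 5 exposures. None was called (edgeR), where 0.0913% of all such tests were. For Ighm the interactions were all negative, from -3.67 ± 1.58 for cabozantinib to -2.28 ± 1.79 for ex vivo IL-27 (edgeR adjusted p = 0.63 and 1). All share the IL-27 vector media libraries, which were 1.36 and 17.1 CPM. At an unadjusted p under 0.05 there were 3 of these tests over the 5 exposures, Ighm with cabozantinib and with docetaxel and Pax5 with ex vivo IL-27, and DESeq2 called 0. Over all genes 6.2% of such tests passed, so 3 of 40 was near the background. Among the 40, the tests of Ms4a1, and that of Cd79b with anti-PD-L1, had no usable error and could not pass.

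Genes with the pattern most like the mean of the 8 were sought over the other 22 libraries, by Pearson's r of log2(CPM + 0.1) among 15155 genes with a mean of at least 0.5 CPM. The 10 highest were Cd300lf (r = 0.78), Irf7 (0.77), F7, Cd37, Il2rg, Trpv2, Oas1b, Il4ra, Pira2 and Ms4a8a (0.75). The points share library and depth, and no p is given. In the high-Ighm library these 10 genes ranked between 3 and 14, so none of them was highest there. Cd37, a tetraspanin of leukocytes, was at 3.44 CPM there with 7.44 CPM as the highest elsewhere. The members themselves did not share 1 pattern over the 22 libraries. Pearson's r with Ighm was 0.49 for Cd79b, 0.45 for Pax5, 0.32 for Cd22, -0.12 for Cd79a and -0.48 for Cr2.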

How the data were processed

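Per the labels, RNA with an integrity number (RIN) of 8 or more was made into stranded poly(A) libraries from 23 tumour samples and sequenced from both ends. The tools named in the submitters' processing notes are DESeq2, StringTie, HISAT2 and cutadapt, on build GRCm38. For versions, settings and the counting step with its use of strand, nothing is given in the sources used here. Estimated counts of 55401 Ensembl identifiers were deposited as 1 table, in whole numbers, so rounding changed nothing. Symbols, coordinates and sequences came from GENCODE M21 (GRCm38), and 260 identifiers had no symbol there.

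Samples were grouped by title into 12 groups of vector and ex vivo condition. The descriptions of the empty vector ex vivo IL-27 samples repeat the library name of the IL-27 vector ex vivo IL-27 sample. Titles were followed for these. The gene members and all lists were chosen with earlier results of these data known. The list of myelinating Schwann cell genes was written after gene ratios had been seen. Genes were named as the 8 members, as up to 6 genes per list with at least 20 counts in the high-Ighm library and their highest level there, and as the 12 genes in no list with at least 50 counts there and the largest ratio to the next library. The 10 genes most like the members over the other 22 libraries were named too, and defining markers of a list could be named with their values. A few genes of the lists are not reported here by name.

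Tests used edgeR 4.0.16 in R 4.3.3 (TMM scaling, filterByExpr by group, glmQLFit and glmQLFTest) on 24315 genes, fitted with a mean for each of the 12 groups and 10 residual degrees of freedom. The high-Ighm library was left out because its values chose the genes. Its group then has 1 library, assumed to vary like the other groups, as does IL-27 vector with ex vivo IL-27. The vector difference is the mean of the 6 differences within conditions. Calls were made at an adjusted p under 0.05 (Benjamini-Hochberg, over all genes tested). The scripts were tested on simulated data. Alternatives were DESeq2 1.42.0, DESeq2-type size factors in edgeR, no filter, at least 1 CPM in 4 libraries, a replicate block, all 23 libraries, an additive model and leaving out each library in turn. Counts divided by 4, and Ighm alone in place of the sum, were added after the data were seen.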

Additional observations from a re-analysis of the deposited data

How the results depend on the processing

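The sum of the 8 genes in the high-Ighm library was 11.6 times the highest of the other 22 libraries. The ratio was 12.7 with scaling by library total alone, 12.8 for Ighm alone (chosen after seeing the data), 1.02 without Ighm, and 0.61 as the median of each gene's own ratio. Between the vectors the count of members called was 0, and became 1 (Ighm in each case) with DESeq2, with no filter and with all 23 libraries. Leaving out each of 22 libraries in turn gave 0 to 1 members, the 1 being Ighm without IL-27 vector media replicate 1. For ex vivo IL-27 that range was also 0 to 1, the 1 being Cd22 without IL-27 vector media replicate 2 (4.91 ± 1.15). That fit left 1 library in the IL-27 vector media group, and its calls over all genes rose from 0 too. For the interactions no filter gave 1 (Ighm for cabozantinib, -3.71 ± 1.11; edgeR adjusted p = 0.041). The Ighm difference between vectors kept its sign in every alternative run, from 1.18 to 2.41, with edgeR or DESeq2 adjusted p from 8.9e-05 to 0.25.

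The replicate number as a block called 0 members in every comparison and gave Ighm 1.34 ± 0.46 (edgeR adjusted p = 0.23). The numbers were not taken as pairing the samples. The correlation of same-numbered libraries' deviations over 45 pairs of groups ran from -0.34 to 0.30 with a median of 0.02, was above 0.1 in 9, and the labels give no shared source.

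Counts over all genes moved more than those of the members. Between vectors 434 genes were called, against 1417 with DESeq2, 1330 with no filter, 722 with all 23 libraries, 260 with the block and 173 to 737 with 1 library left out. For docetaxel 265 were called, against 1454, 1534, 437, 109 and 0 to 940 in the same order, and 0 in the additive model. For the interactions 111 were called, against 1690, 3199, 368, 0 and 0 to 1109. For cabozantinib, anti-PD-L1 and ex vivo IL-27 DESeq2 called 185, 59 and 404 genes and no filter 695, 450 and 801, where edgeR with its filter called 0. For the combination the counts were 1, 28 with DESeq2, 186 with no filter and 0 in the additive model. For ex vivo IL-27 the fit without empty vector IL-27 replicate 2 called 2840. A filter of 1 CPM in 4 libraries kept 3 members (Cr2, Ighm and Cd22) and division by 4 kept 6, which limits what those alternatives say of the rest. At a few counts per library, differences of Ms4a1, Bank1 and Cd79a between single libraries were not resolvable.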

Other observations

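Part of a list of genes of myelinating Schwann cells was also high in the high-Ighm library. The 12 genes of this list, written after Gldn had been seen among the genes with the largest ratios and therefore given no test, summed to 327 CPM there and to 110 to 189.6 CPM in the other 22 libraries, and 7 of the 12 were highest there. Mbp, a myelin protein, was at 69.7 CPM against at most 19.6 CPM. Ngfr, the low-affinity neurotrophin receptor, and Gjb1, a gap junction protein of myelin, were at 9.36 and 5.02 CPM against at most 1.46 and 0.892 CPM. Sox10, the lineage's transcription factor, was at 5.92 CPM against at most 1.83 CPM. Pmp22, Egr2, Mag and Cnp were among those that were not highest there, so the list did not set that library apart gene by gene.

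Igha had its own high library. It was at 6.70 CPM (248 counts) in IL-27 vector docetaxel replicate 1, the same library that was second for Jchain, and at 0 CPM in 8 of the 22 libraries other than the high-Ighm one, where it was also 0.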
